A study of Bos taurus with 20 samples.

Results

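ACTB, CFL1 and RHOG, genes of actin filament turnover, were followed in RNA-seq libraries of tissue labelled rumen epithelium from 20 steers, with 1 library per animal. The 3 genes were taken by their Ensembl identifiers, ENSBTAG00000026199 for ACTB, ENSBTAG00000021455 for CFL1 and ENSBTAG00000000347 for RHOG, out of 24616 genes listed in every library. All 3 were among the 14293 genes that passed the filter on low counts. The animals were Hereford x Aberdeen Angus steers on a feedlot finishing diet, and their rumen papillae were taken at slaughter. Their age is not stated in the labels. Residual feed intake (RFI) is the feed an animal eats beyond what its growth and maintenance predict, so that a low RFI stands for an efficient animal. The labels put 11 steers in High RFI and 9 in Low RFI. A list in the study gives the opposite group for 6 of its 18 steers (23, 33, 47 and 205 are labelled High RFI and listed as L-RFI, and 219 and 455 are labelled Low RFI and listed as H-RFI), and it does not hold steers 281 and 345. Each column of values is also headed by a code, from AD011 to CD012, that neither the labels nor the methods explain. The middle digits of the code divide the libraries into a set coded 01 (n = 8), a set coded 03 (n = 6) and a set coded 12 (n = 6). Set 01 held 5 steers labelled High RFI and 3 labelled Low RFI, and the other sets held 3 of each. The codes ran in the same order as the steer numbers in 20 of 20 libraries, and by steer number the first 11 steers were labelled High RFI and the last 9 Low RFI.

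Actin filaments grow by the addition of actin monomers at one end and shrink by their loss at the other. ACTB encodes β-actin, the monomer of most cytoplasmic filaments, and CFL1 encodes cofilin 1, which binds ageing filaments and severs them, so that monomers return to the pool. RHOG encodes a small GTPase, which in its GTP-bound form signals through ELMO and DOCK proteins to Rac and so to membrane ruffling and cell movement. In a stratified epithelium such as that of the rumen, the actin network anchors the adherens junctions and gives the cells their shape. ACTB is also used in many tissues as a reference gene of assumed constant level.

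The libraries held between 9622534 and 13960297 reads counted on genes (median 11829722), and 3 reads, the limit that a count of 0 allows, corresponded to 0.215 to 0.312 counts per 1000000 reads (CPM). The TMM factors, by which library totals were multiplied so that most genes had like levels in all libraries, ranged from 0.711 in steer 47 to 1.16 in steer 51. They averaged 1.09 in set 01, 1.00 in set 03 and 0.908 in set 12, and differed between set 12 and set 01 (exact two-sided permutation test, adjusted p = 0.0030 over 3 comparisons). A low factor raises every scaled value of a library, and for that reason the members are given both as deposited and after scaling. Of the keratinocyte markers, KRT14, a keratin of the basal layer, did not exceed 1.35 CPM in any library and was under 3 reads in 4, ZNF750 did not exceed 0.592 CPM and PKP1 did not exceed 0.831 CPM. LYPD3, PKP3, RAB25 and LLGL2 were found in every library, with medians of 4.94, 25.1, 21.2 and 30.2 CPM. The endothelial receptor KDR and the contractile MYL9 had medians of 38.9 and 390.4 CPM. The near absence of KRT14, ZNF750 and PKP1 goes against the label of rumen epithelium. The presence of LYPD3, PKP3, RAB25 and LLGL2 goes with it, so these markers point both ways. Of 23 cell type markers chosen, 9 had an identifier, and other keratinocyte markers could not be examined. The symbols rest on the study's pairing of identifiers and symbols, which was not tested.

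ACTB was among the most abundant transcripts of these libraries and CFL1 and RHOG stood at lower ranks. ACTB ranked between 1 and 7 in the 20 libraries (median rank 4), and it was the first of all genes in the library of steer 47. CFL1 ranked between 24 and 71 (median 37) and RHOG between 678 and 1656 (median 1014). As deposited, ACTB was at 6597 ± 1426 CPM (SD, n = 20), from 4343 CPM in steer 11 to 9766 CPM in steer 47, which was between 0.434% and 0.977% of all reads of a library. CFL1 was at 1950 ± 380 CPM (SD, n = 20), from 1387 CPM in steer 33 to 2720 CPM in steer 345. RHOG was at 180.5 ± 29.6 CPM (SD, n = 20), from 125.3 CPM in steer 11 to 238.5 CPM in steer 345. CPM are not divided by transcript length, so these levels order the reads of the 3 genes and not their numbers of transcripts. Reads of ACTB may in part come from other actin genes of near-identical coding sequence, depending on how the counting divided them.

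The members varied among steers with coefficients of variation of 21.6% for ACTB, 19.5% for CFL1 and 16.4% for RHOG over the 20 libraries. The counting error of a single value was 0.310% to 0.452% for ACTB, 0.557% to 0.791% for CFL1 and 1.88% to 2.55% for RHOG. Before scaling, the SD of log2(CPM + 1) was 0.31 for ACTB, 0.28 for CFL1 and 0.24 for RHOG, and 35.0%, 30.5% and 21.3% of the genes tested had a lower SD. TMM scaling widened the spread of all 3. The SD of ACTB rose to 0.49, that of CFL1 to 0.46 and that of RHOG to 0.39, and 62.2%, 57.8% and 47.9% of the genes tested then had a lower SD. The median SD over all genes tested changed little, from 0.396 to 0.404. Scaled ACTB ran from 3957 CPM in steer 11 to 13730 CPM in steer 47, a 3.47-fold range, against 2.25-fold as deposited. Scaled CFL1 ran over a 2.84-fold range and scaled RHOG over a 2.62-fold range. The place of ACTB in the order of variability therefore moved from below the median gene to above it with the scaling.

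**Figure D1:**
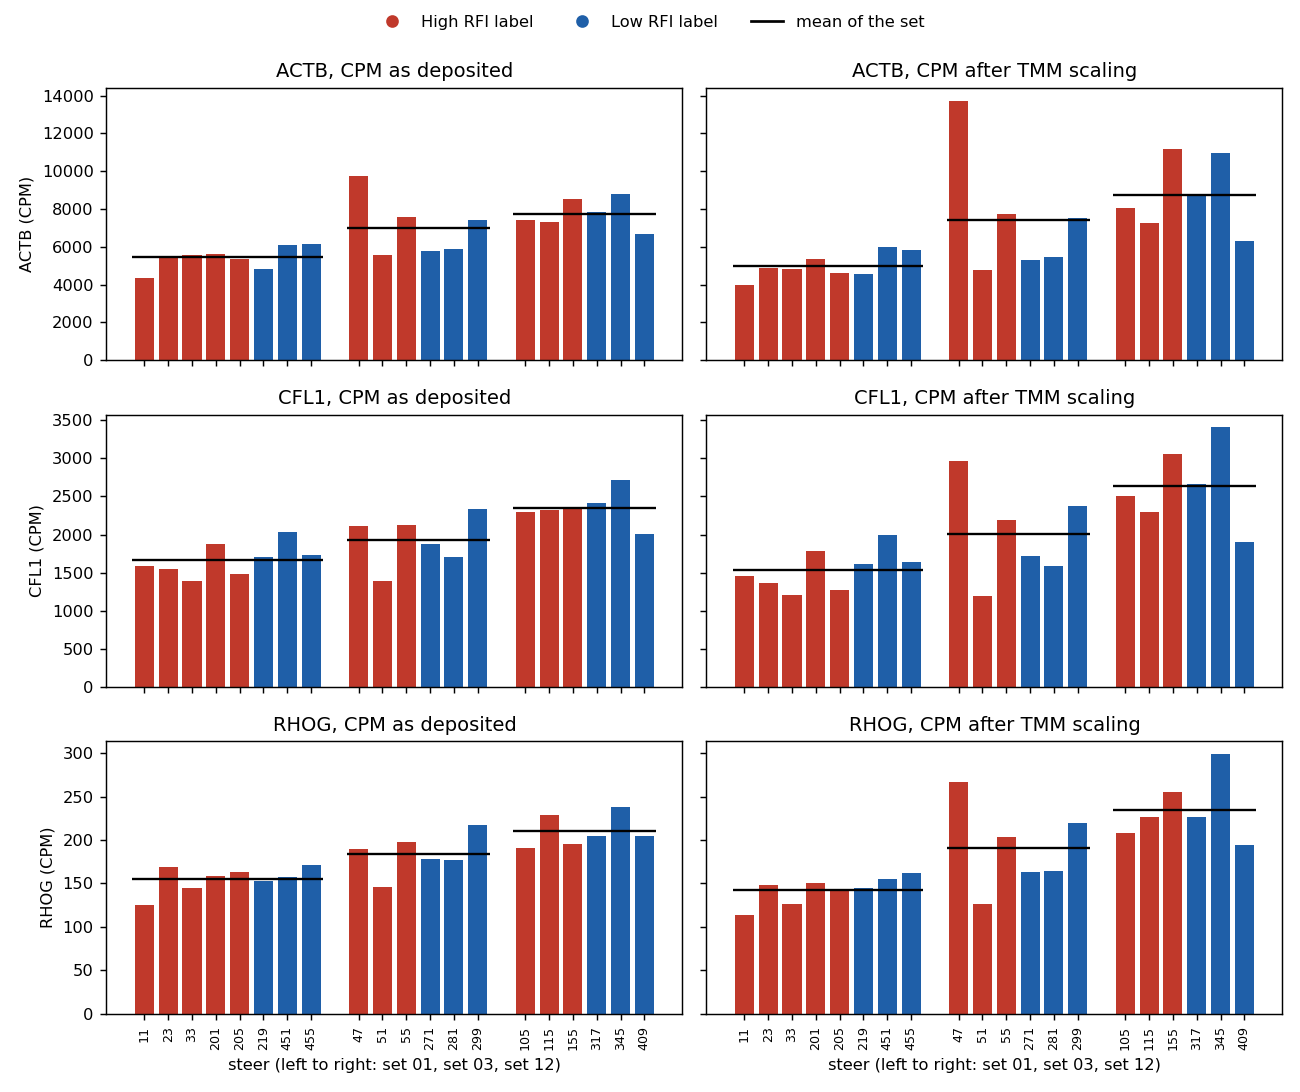
Level of ACTB, CFL1 and RHOG in each of the 20 libraries (bars, CPM on the vertical axis, steer number on the horizontal axis), as deposited on the left and after TMM scaling on the right. Bar colour is the RFI label and black lines are the means of sets 01, 03 and 12, and all 3 genes have their lowest mean in set 01 and their highest in set 12, on both scales.

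All 3 genes were lowest in set 01, intermediate in set 03 and highest in set 12. As deposited, ACTB was at 5431 ± 608 CPM in set 01 (SD, n = 8, lowest 4343, median 5534, highest 6155), 6992 ± 1615 CPM in set 03 (SD, n = 6, lowest 5550, median 6657, highest 9766) and 7756 ± 792 CPM in set 12 (SD, n = 6, lowest 6660, median 7628, highest 8765). Every library of set 12 was above every library of set 01, and set 03 overlapped both. Scaled ACTB was at 4993 ± 680 CPM in set 01 (lowest 3957, median 4839, highest 5991), 7427 ± 3326 CPM in set 03 (lowest 4777, median 6510, highest 13730) and 8745 ± 1975 CPM in set 12 (lowest 6328, median 8374, highest 11190). The groups kept that order, and sets 12 and 01 again did not overlap. The wide SD of set 03 came with steer 47, whose scaled ACTB of 13730 CPM compares with 7756 CPM in the next library of the set, that of steer 55.

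CFL1 followed the same order with a narrow overlap. As deposited it was at 1669 ± 214 CPM in set 01 (SD, n = 8, lowest 1387, median 1651, highest 2032), 1926 ± 340 CPM in set 03 (SD, n = 6, lowest 1393, median 1993, highest 2336) and 2348 ± 229 CPM in set 12 (SD, n = 6, lowest 2007, median 2325, highest 2720). After scaling it was at 1541 ± 270 CPM in set 01 (lowest 1207, median 1534, highest 1997), 2006 ± 630 CPM in set 03 (lowest 1199, median 1954, highest 2964) and 2638 ± 535 CPM in set 12 (lowest 1907, median 2586, highest 3405). On both scales the lowest library of set 12, steer 409, was below the highest of set 01, steer 451, and no other library of set 12 was.

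RHOG separated sets 12 and 01 with the least spread within them. As deposited it was at 155.4 ± 14.9 CPM in set 01 (SD, n = 8, lowest 125.3, median 157.9, highest 171.8), 184.2 ± 23.7 CPM in set 03 (SD, n = 6, lowest 146.3, median 183.7, highest 216.7) and 210.4 ± 19.0 CPM in set 12 (SD, n = 6, lowest 190.9, median 204.5, highest 238.5). After scaling it was at 142.7 ± 15.7 CPM in set 01 (lowest 114.2, median 146.6, highest 162.1), 190.5 ± 49.7 CPM in set 03 (lowest 125.9, median 184.1, highest 266.2) and 234.8 ± 37.5 CPM in set 12 (lowest 194.3, median 226, highest 298.6). Sets 12 and 01 did not overlap on either scale. For comparison, set 12 lay wholly above set 01 in 7.33% of all genes tested as deposited and in 9.83% after scaling. The sets held 48.4% of the variance of scaled ACTB, 50.9% of that of CFL1 and 60.3% of that of RHOG, with a median of 36.0% over all genes tested.

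Between set 12 and set 01 the 3 members passed the test, each with a higher level in set 12. The difference in log2(scaled CPM + 1) was 0.79 for ACTB (SE 0.22, limma, adjusted p = 0.0055), 0.77 for CFL1 (SE 0.18, adjusted p = 0.0034) and 0.71 for RHOG (SE 0.14, adjusted p = 0.0022). These were 3 called genes on a background in which 62.7% of all genes tested were called and 32.0% were called higher in set 12. Without scaling the differences were smaller, 0.52, 0.50 and 0.44 (limma, adjusted p = 0.0047, 0.0033 and 0.0025), and 20.3% of all genes were called higher. The scaling moved the median difference of all genes tested from -0.23 to 0.01. Relative to that median, ACTB was higher in set 12 by 0.78 after scaling and by 0.75 before it, CFL1 by 0.76 and 0.73, and RHOG by 0.70 and 0.67. Of the calls over all genes, 51.0% were higher and 49.0% lower in set 12 after scaling, against 34.2% and 65.8% without it. Without the 4 libraries of steers 47, 317, 105 and 155, set 12 held 3 libraries against 8 of set 01. The differences were then 0.67, 0.68 and 0.71 (limma, adjusted p = 0.022, 0.023 and 0.020). Leaving out any 1 library of the sets kept each adjusted p at or below 0.0192.

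Set 03 could not be placed apart from its neighbours in the order with all libraries in the fit. Against set 01, ACTB was higher in set 03 by 0.48 (SE 0.22, limma, adjusted p = 0.20), CFL1 by 0.34 (SE 0.18, adjusted p = 0.23) and RHOG by 0.38 (SE 0.14, adjusted p = 0.16), so that 0 of the 3 were called, with 2 at an unadjusted p under 0.05, and edgeR and DESeq2 also called 0, with all 3 at an unadjusted p under 0.05 in each. Of all genes, 0.371% were called. Between set 12 and set 03 the differences were 0.30 for ACTB (95% interval -0.18 to 0.78), 0.43 for CFL1 (0.02 to 0.84) and 0.33 for RHOG (0.02 to 0.63), with adjusted p-values of 0.36, 0.19 and 0.19 (limma), and 0.756% of all genes were called. Here too 2 of the 3 had an unadjusted p under 0.05, and edgeR and DESeq2 called 0 of them, with 0 unadjusted. The calls of this comparison changed with the libraries in the fit. Without steer 47, ACTB was 0.48 higher in set 12 than in set 03, CFL1 0.54 and RHOG 0.41 (limma, adjusted p = 0.035, 0.021 and 0.018). In that fit, 22.6% of all genes were called higher in set 12. Without steers 47, 317, 105 and 155 the comparison was of 3 libraries of set 12 against 5 of set 03. The differences were 0.38, 0.47 and 0.44 and were not called (limma, adjusted p = 0.23, 0.18 and 0.16), with 19 of all genes called. The smaller number of libraries and the choice of steers left out cannot be told apart here. In a test over all 3 sets at once, the F test of limma called ACTB (adjusted p = 0.017), CFL1 (adjusted p = 0.011) and RHOG (adjusted p = 0.0072), and 54.0% of all genes.

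**Figure D2:**
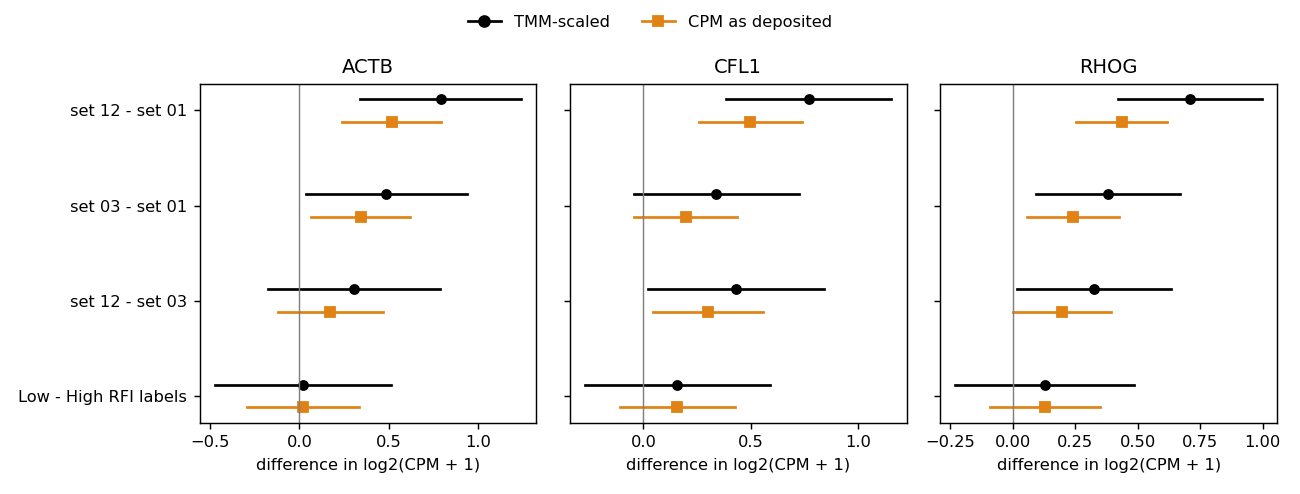
Difference of each member between sets of libraries and between RFI labels, in log2(CPM + 1), with 95% intervals from limma, for TMM-scaled values (circles) and values as deposited (squares). The intervals of set 12 minus set 01 lie above 0 for all 3 genes on both scales, and those of Low minus High RFI labels include 0.

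Other measures moved with the sets. Libraries with high levels of the members tended to have a low TMM factor and few detected genes (those with 1 read or more). The factor is computed from the same counts as the levels. The share of all genes with such a relation was not computed, so it cannot be called particular to the members. On the scaled values, 24.5% of the other genes tested had r above 0.8 with ACTB and 27.0% had r below -0.8. As deposited, ACTB correlated with the TMM factor over the 20 libraries at r = -0.878 (Spearman -0.892), CFL1 at r = -0.804 (Spearman -0.917) and RHOG at r = -0.609 (Spearman -0.705). Permutation p-values adjusted over 6 such relations were 4e-05, 4e-05 and 0.0034 for r and 3e-05, 3e-05 and 0.00072 for Spearman's coefficient. Without steers 47 and 155 the r were -0.823, -0.933 and -0.723. Within sets 01, 03 and 12, r was -0.239, -0.969 and -0.953 for ACTB, -0.951, -0.646 and -0.703 for CFL1 and -0.069, -0.532 and 0.02 for RHOG, so that the relation of RHOG was not found within sets 01 and 12. With the number of genes detected, r was -0.872 for ACTB, -0.769 for CFL1 and -0.609 for RHOG (Spearman -0.904, -0.875 and -0.697; permutation, adjusted p = 4e-05, 0.00012 and 0.0034 for r). Without steers 47 and 155 these r were -0.812, -0.903 and -0.738. Within sets 01, 03 and 12 they were -0.165, -0.939 and -0.965 for ACTB, -0.85, -0.553 and -0.705 for CFL1, and 0.024, -0.463 and -0.129 for RHOG.

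Of the 6 cell type markers that could be tested, 3 (RAB25, KDR and MYL9) were called between set 12 and set 01, where 62.7% of all genes were. The summed scaled level of the 7 keratinocyte markers was 63.3 to 78.4 CPM in set 01, 74.5 to 164 CPM in set 03 and 65.6 to 116 CPM in set 12. Of its 4 genes that could be tested, RAB25 rose between set 01 and set 12 (0.98, limma, adjusted p = 0.0025) and the other 3 did not pass the test after scaling. Among the latter, LLGL2 was at -0.22 (limma, adjusted p = 0.13) and at -0.48 without scaling, where it was called lower (adjusted p = 0.0080). Relative to the median of all genes tested, LLGL2 was at -0.22 after scaling and -0.25 without it. KDR fell by 0.54 (limma, adjusted p = 0.047), from a range of 33.9 to 50.6 CPM in set 01 to 19.3 to 41.9 CPM in set 12. MYL9, a myosin light chain of contractile cells, was between 229.3 and 398.9 CPM in set 01 and between 446 and 664.9 CPM in set 12. The part of these measures in the differences of ACTB, CFL1 and RHOG was not tested. In bulk tissue, fewer cells of a type and less RNA per cell cannot be told apart.

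The design of the study asks whether the epithelium of efficient and inefficient animals differs. Between the RFI labels, none of the 3 members differed beyond the spread among steers. The study, which compared its own L-RFI and H-RFI groups of 18 steers with DESeq2, reported all 3 as higher in L-RFI. Its fold changes for ACTB and CFL1 lie within the limma intervals for the labels, given in the next paragraph. It also counted more genes with a read in its samples than the 20064 found in these 20 libraries. Whether its counts are the same as those used here was not tested. Scaled ACTB was at 6941 ± 3107 CPM in High RFI (SD, n = 11, lowest 3957, median 5347, highest 13730) and 6736 ± 2013 CPM in Low RFI (SD, n = 9, lowest 4555, median 5991, highest 10970). Scaled CFL1 was at 1934 ± 702 CPM in High RFI (lowest 1199, median 1788, highest 3054) and 2101 ± 611 CPM in Low RFI (lowest 1592, median 1907, highest 3405). Scaled RHOG was at 178.6 ± 54.9 CPM in High RFI (lowest 114.2, median 150.3, highest 266.2) and 192.1 ± 49.2 CPM in Low RFI (lowest 144.8, median 164.9, highest 298.6). The groups overlapped over most of their range for each gene.

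On the log2 scale, Low minus High RFI was 0.02 for ACTB (95% interval -0.47 to 0.51), 0.16 for CFL1 (-0.27 to 0.59) and 0.13 for RHOG (-0.23 to 0.49), all with adjusted p = 1 (limma). The intervals leave room for a difference of either sign in each gene. Of all genes tested, 0.0% were called by limma, with 154 at an unadjusted p under 0.05. edgeR called 0 genes (177 unadjusted) and DESeq2 called 0 (316 unadjusted). With the groups of the study's list (n = 9 and 9), L-RFI minus H-RFI was 0.06 for ACTB (SE 0.24), -0.03 for CFL1 (SE 0.21) and 0.05 for RHOG (SE 0.17), and in the 12 steers given the same group by both sources it was 0.03, 0.09 and 0.10 (SE 0.29, 0.24 and 0.21). All steers with opposite groups in label and list were in set 01, except steer 47 of set 03. Within set 01 the label differences were 0.16, 0.27 and 0.14 for ACTB, CFL1 and RHOG, within set 03 they were -0.41, -0.09 and -0.07, and within set 12 they were -0.05, -0.02 and 0.03. An interaction of label and set was not called for any of them (limma, adjusted p = 0.81, 0.82 and 0.86).

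The ratio of 2 genes within a library does not depend on its scaling. There were 0.304 CFL1 reads for each ACTB read in the median library, from 0.216 in steer 47 to 0.366 in steer 11. For RHOG the ratio was 0.028 in the median library, from 0.0194 in steer 47 to 0.0318 in steer 219. The library of steer 47, which had the highest ACTB level, had the lowest value of both ratios. The log2 ratio of CFL1 to ACTB was -1.70 ± 0.20 in set 01 (SD, n = 8), -1.85 ± 0.22 in set 03 (SD, n = 6) and -1.72 ± 0.08 in set 12 (SD, n = 6). That of RHOG to ACTB was -5.13 ± 0.11, -5.23 ± 0.25 and -5.20 ± 0.17. The spread of the ratios over all libraries, an SD of 0.18 and 0.17 on the log2 scale, was below that of each gene on its own.

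None of 8 comparisons of the ratios passed the test. Between set 12 and set 01, where each gene differed on its own, the log2 ratio of CFL1 to ACTB differed by -0.02 (exact two-sided permutation test, adjusted p = 0.83) and that of RHOG to ACTB by -0.08 (exact permutation, adjusted p = 0.47). Between the RFI labels they were 0.14 and 0.11 higher in Low RFI (exact permutation, adjusted p = 0.45 for both), and with the groups of the study's list the differences turned to -0.09 and -0.01. Within set 03 the 3 Low RFI libraries lay above the 3 High RFI libraries in both ratios, at 0.291 to 0.326 against 0.216 to 0.282 for CFL1 and at 0.0292 to 0.0309 against 0.0194 to 0.0264 for RHOG. The exact permutation p of 0.1 is the smallest that 3 against 3 libraries can give, and in sets 01 and 12 the labels overlapped. In set 01 the ratio of RHOG to ACTB differed by -0.02 on the log2 scale, Low minus High RFI. The lowest High RFI library of set 03, that of steer 47, is L-RFI in the study's list, under which the separation is lost.

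**Figure D3:**
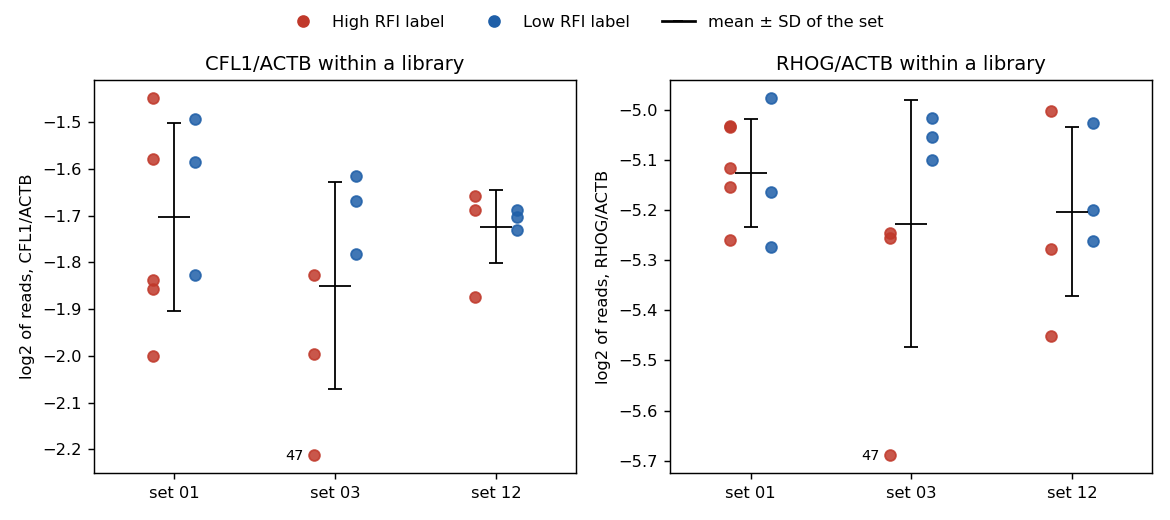
Log2 ratio of reads of CFL1 to ACTB (left) and of RHOG to ACTB (right) in each library, by set on the horizontal axis and RFI label (colour), with the mean and SD of each set in black. The sets overlap in both panels, and steer 47 has the lowest value in each.

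ACTB, CFL1 and RHOG rose and fell together over the 20 libraries. On the scaled log2 values, Pearson's r was 0.928 for ACTB and CFL1 (Spearman 0.925), 0.948 for ACTB and RHOG (Spearman 0.95) and 0.945 for CFL1 and RHOG (Spearman 0.932). The permutation p, adjusted over the 3 pairs, was 1e-05 for each r and Spearman's coefficient, the smallest that 100000 resamples can give. Leaving out the 2 libraries farthest from the median gave r of 0.933, 0.961 and 0.92. Division of both genes by the same factor enters these values. As deposited, r was 0.81, 0.826 and 0.837 (Spearman 0.862, 0.821 and 0.851; permutation, adjusted p = 5e-05, 5e-05 and 3e-05 for r), and 0.828, 0.865 and 0.781 without the 2 farthest libraries.

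Part of this covariation lay between the sets. After the mean of each set was removed, r was 0.876, 0.906 and 0.892 on the scaled values and 0.631, 0.598 and 0.635 on the values as deposited (permutation, adjusted p = 0.0044, 0.0052 and 0.0044 for the latter). The last of these, CFL1 and RHOG as deposited, rested on steers 51 and 299, and was 0.385 without them. Within single sets, scaled ACTB and CFL1 had r of 0.618 in set 01, 0.924 in set 03 and 0.974 in set 12, ACTB and RHOG 0.836, 0.933 and 0.879, and CFL1 and RHOG 0.562, 0.996 and 0.919. Of these, ACTB with CFL1 and CFL1 with RHOG in set 01 did not pass (permutation, adjusted p = 0.15 for both). As deposited, the values within sets were 0.346, 0.725 and 0.858 for ACTB and CFL1, 0.772, 0.624 and 0.257 for ACTB and RHOG, and 0.212, 0.976 and 0.549 for CFL1 and RHOG. Only that of CFL1 and RHOG in set 03 passed among these (permutation, adjusted p = 0.0042).

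**Figure D4:**
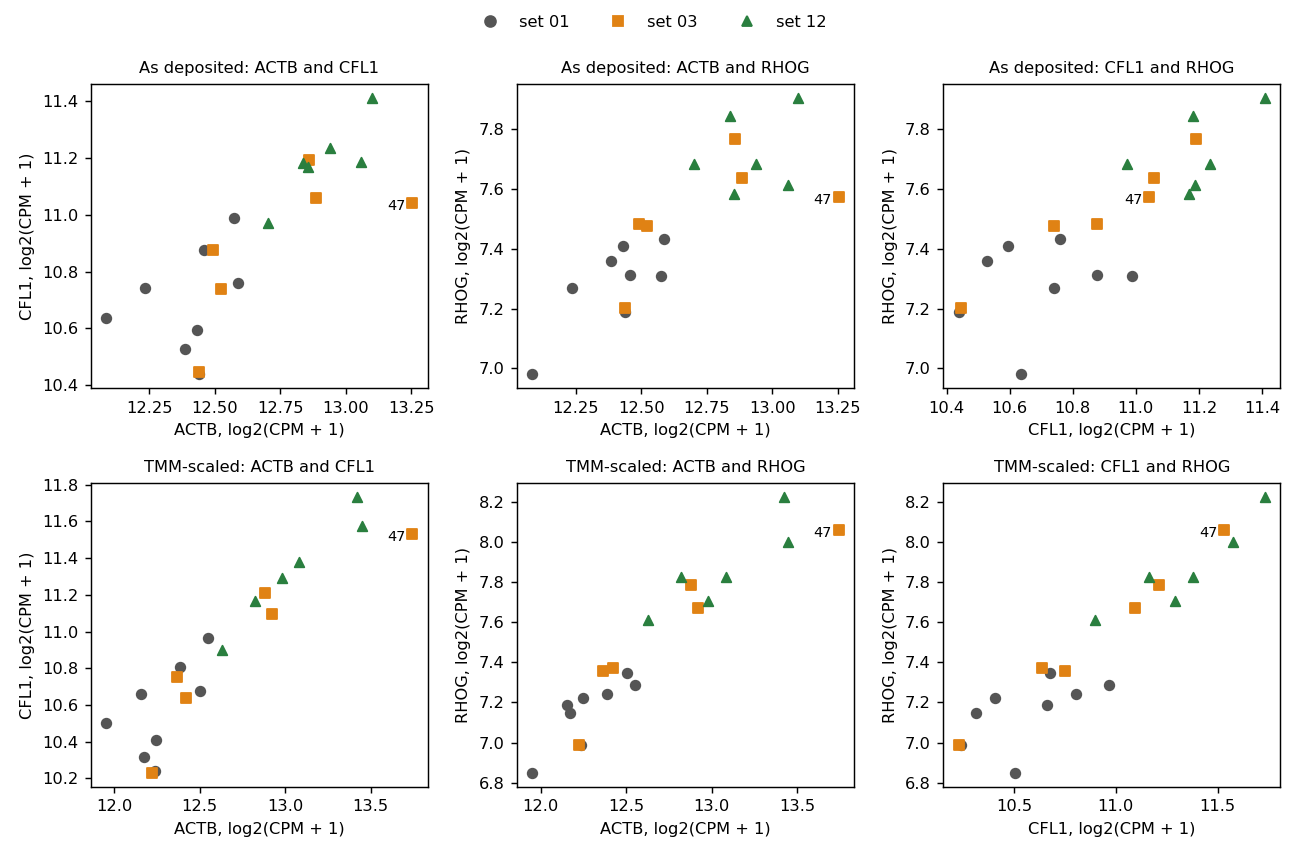
Pairs of members in the 20 libraries, log2(CPM + 1) on both axes, as deposited (top) and TMM-scaled (bottom), with one symbol per set. Points of set 12 lie towards the upper right and those of set 01 towards the lower left, r is 0.81 to 0.837 in the top row and 0.928 to 0.948 in the bottom row, and steer 47 lies to the right in the panels with ACTB on the horizontal axis.

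High correlation with a member was common among all genes. On the scaled values, 24.5% of the other 14292 genes tested had r above 0.8 with ACTB, 23.0% with CFL1 and 20.6% with RHOG. CFL1 was at rank 1571 and RHOG at rank 966 among the genes ordered by r with ACTB, while ACTB was at rank 64 and CFL1 at rank 91 in the order for RHOG. The gene most like ACTB was ENSBTAG00000021061 (r = 0.991, n = 20; 0.975 as deposited) and the gene most like CFL1 was ENSBTAG00000016746 (r = 0.989; 0.972 as deposited). None of the first 5 genes for any member has a symbol in the sources used here. The highest placed genes that have one, named after their values were seen, were COX8A, a subunit of cytochrome c oxidase, for CFL1 (r = 0.981) and SLC25A39, a mitochondrial carrier, for RHOG (r = 0.962). These r share libraries and scaling and are given as a description.

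Further genes of the actin cytoskeleton and its signalling were described for 9 entries from the study's list of genes, which the study chose on samples of this series. Between set 12 and set 01, 6 of these 9 entries rose and 3 did not pass, against 32.0% of all genes called higher and 30.7% called lower. Among the genes that bind actin monomers, the thymosin TMSB4 rose under both of its identifiers, ENSBTAG00000038488 (1.23, limma, adjusted p = 0.0057) and ENSBTAG00000034580 (1.00, adjusted p = 0.0033), and TMSB10 rose by 0.95 (adjusted p = 0.019). Reads of the TMSB4 entries may be shared between them, depending on the counting. DSTN, destrin, which depolymerises actin as cofilin does, was at 0.36 (adjusted p = 0.17).

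Of the myosin and signalling genes, MYL9 rose by 0.86 (limma, adjusted p = 0.0018). GNB2, a β subunit of heterotrimeric G proteins, rose by 0.72 (adjusted p = 0.0041), which was near the values of ACTB, CFL1 and RHOG. GNB1, another β subunit, rose by 0.28 (adjusted p = 0.0096) after scaling but was at 0.01 without it (adjusted p = 0.96). VEZT, a protein of adherens junctions, was at 0.13 (adjusted p = 0.15) and at -0.13 without scaling, and DNM2, a dynamin, was at -0.12 (adjusted p = 0.20), which became -0.39 without scaling (adjusted p = 0.020). Without scaling 5 of the 9 rose and 1 (DNM2) fell. The median of all genes tested was itself at -0.23 without scaling. Relative to the median, GNB1 was at 0.27 after scaling and 0.24 before it, VEZT at 0.13 and 0.1, and DNM2 at -0.13 and -0.16. Between the RFI labels 0 of the 9 passed in limma, edgeR or DESeq2, with 0 at an unadjusted p under 0.05. Between set 03 and set 01, and between set 12 and set 03, 0 passed in any of these tools, with 1 and 3 at an unadjusted p under 0.05 in limma and 5 and 3 in both edgeR and DESeq2.

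**Figure D5:**
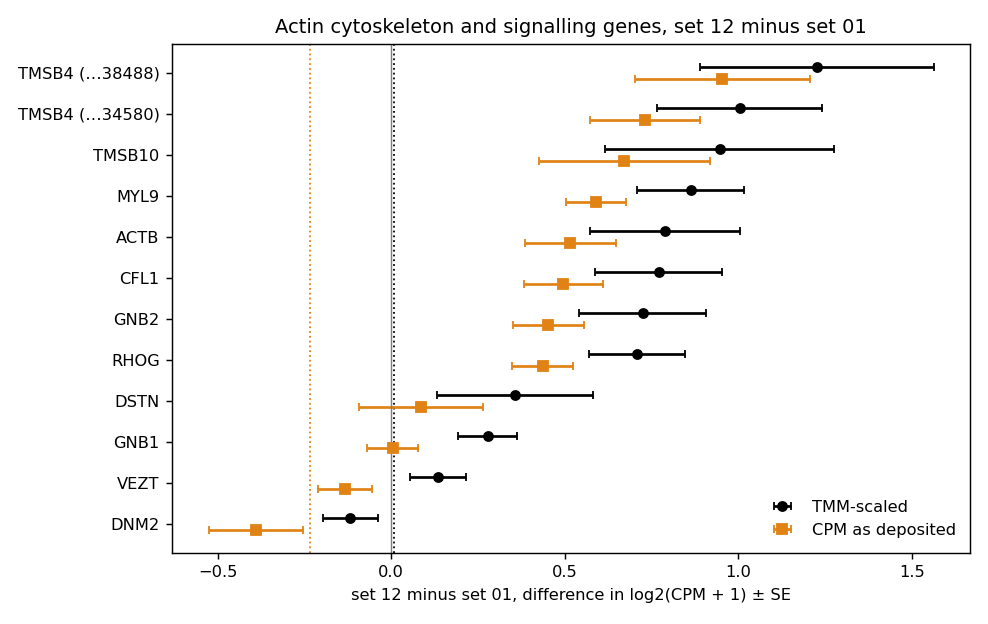
Difference between set 12 and set 01 in log2(CPM + 1) (horizontal axis, bars are SE) for ACTB, CFL1, RHOG and the 9 further entries, TMM-scaled (circles) and as deposited (squares). Dotted lines are the medians of all genes tested, 0.01 and -0.23, and the members lie at 0.71 to 0.79 after scaling, between GNB1 and the thymosins.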

How the data were processed

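Rumen papillae of 20 steers were sequenced as paired 100-bp reads, 1 library per steer. Per the labels and methods, reads were aligned with TopHat2 (2.0.10 in the submitters' processing notes) to UMD 3.1, after CASAVA 1.8, and counted per Ensembl gene with HTSeq. The labels and the methods name different RNA extractions and input amounts. The authors deposited CPM per gene and library. Dividing by the value of 1 read returned whole reads for 100% of values (tolerance 0.01 reads), with 9622534 to 13960297 reads per library. Intervals, errors and limits from reads cover counting error only.

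Groups were the RFI labels and the middle digits of the column code. limma 3.58.1 was run on the genes that filterByExpr kept (minimum count 10), with trend, Benjamini-Hochberg adjustment and a threshold of 0.05, on log2(TMM-scaled CPM + 1), a scale that understates changes of low genes. Because the files hold CPM, edgeR 4.0.16 (quasi-likelihood, 14293 genes) and DESeq2 1.42.0 (without the low-count filter, 20064 genes) on the recovered reads were alternatives; for set 12 against set 01 they called 8643 and 9650 genes. Ratios and TMM factors were compared by exact two-sided permutation over libraries, correlations with 100000 permutations (R 4.3.3, Python 3.11.15, scipy 1.17.1). The tests were run on simulated data with 200 changed genes. For set 12 against set 01 (14317 genes), limma recovered 69.4% of 2-fold and 91.2% of 3-fold changes with 4 false calls. There edgeR made 7 false calls and DESeq2, on 19621 genes, made 38. Recovery of changes below 2-fold, such as those of the members, was not tested. A comparison with as many changed genes as were called between these sets was not tested either.

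The members, lists, tests and alternatives were chosen with earlier results of these data known. Named were the members, a list of actin cytoskeleton and signalling genes and the 5 genes most like each member. Some items of this rule are not reported here, and counts over the list cover only its 9 entries that are, so they do not describe the whole list. Symbols came from 114 pairs of identifier and symbol in the study, since 0 identifiers of the files occur in the reference table (ARS-UCD2.0), and 9 of 23 cell type markers had one. The alternatives were no scaling, RLE, a pseudocount of 0.1, no filter, the other tools, other groupings or covariates, leaving out libraries, and, added after seeing the data, fits within sets, the interaction of label and set, and removal of set means.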

Additional observations from a re-analysis of the deposited data

Results flagged for a closer look

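Of 36 groups of 6 to 9 libraries examined (members, their ratios to ACTB and the TMM factor, by set and in Low RFI), 3 had a library whose gap to the next was a larger share of the group's range than expected in 1 of 20 groups by chance. Scaled ACTB in set 03 was 13730 CPM in steer 47, against 7756 CPM in the next library, a gap of 0.667 of the range (critical value 0.625). The log2 ratio of RHOG to ACTB in set 03 was lowest in the same steer 47, at -5.689 against -5.255, a gap of 0.645 of the range. The log2 ratio of CFL1 to ACTB in set 12 was lowest in steer 155, at -1.873 against -1.731, a gap of 0.657 of the range. These libraries had the lowest TMM factors of the series, 0.711 and 0.763, and the fewest genes with a read, 16165 and 16479. ACTB of steer 47 as deposited, 9766 CPM, was not flagged, and the ratios do not depend on the scaling. Otherwise the part of the factors and of the genes with a read in the flagged values was not tested.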

How the results depend on the processing

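Between set 12 and set 01, the calls and directions of ACTB, CFL1 and RHOG were the same under all 9 alternatives and when any 1 library of these sets was left out (0.69 to 0.88, 0.68 to 0.86 and 0.62 to 0.76). Leaving out 1 library of the sets compared gave 7071 to 9509 genes called for set 12 against set 01 (9890 without steer 47, of set 03), 18 to 279 for set 03 against set 01 and 7 to 7235 for set 12 against set 03. For set 03 against set 01 it gave 0.29 to 0.59, 0.22 to 0.47 and 0.28 to 0.49 for ACTB, CFL1 and RHOG, with no call, and for set 12 against set 03 0.20 to 0.48, 0.29 to 0.54 and 0.22 to 0.41, called only without steer 47 (0.481, 0.536 and 0.411). Genes called for set 03 against set 01 (53) were 91 with edgeR, 727 with DESeq2, which ran without the low-count filter (20064 genes), and 31 without steer 47. Those for set 12 against set 03 (108) were 214, 1017 and 7235, and 19 without steers 47, 317, 105 and 155. Within set 01, 20 of 14591 genes tested were called between labels (5 High RFI and 3 Low RFI libraries), all lower in Low RFI. Steers 23, 33, 205, 219 and 455 of that set have the opposite group in the study's list. The label difference of ACTB (0.02) turned to -0.004 with RLE, -0.043 with edgeR, -0.071 with DESeq2, -0.059 with set as covariate, and -0.407 and -0.049 within sets 03 and 12. That of CFL1 turned to -0.034 with the study's list and to -0.085 and -0.017 within sets 03 and 12, and that of RHOG to -0.068 within set 03. None of these was called. The ratio of CFL1 to ACTB between labels turned to -0.091 with the study's list, and that of RHOG to -0.006 with it and to -0.019 within set 01. For set 12 against set 01 the ratios turned to 0.012 and 0.05 without the 4 libraries, and for set 12 against set 03 RHOG to ACTB turned to -0.069 without steer 47. The correlations that were no longer called were r = 0.618 and 0.562 (ACTB and CFL1, CFL1 and RHOG, scaled, set 01) and, as deposited, 0.346, 0.725 and 0.858 (ACTB and CFL1), 0.772, 0.624 and 0.257 (ACTB and RHOG) and 0.212 and 0.549 (CFL1 and RHOG, sets 01 and 12). The SD of log2 level moved to 0.306, 0.285 and 0.238 without scaling and to 0.374, 0.339 and 0.26 after removal of set means, and that of ACTB to 0.372 without the 4 libraries. For these changes the cause was not tested. No paired analysis was possible because the labels give the groups no shared replicate numbers that tie steers together. Each member had 1540 reads or more in every library, a counting error of at most 2.55%.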
